A study of Homo sapiens with 8 samples.

Results

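Transcript levels of 40 genes of the TGF-beta, activin and BMP pathway were followed in the hepatoma lines Hep-3B and Huh7 after KLHL23 was silenced. The genes were chosen by name, and each was read from the brightest of the probe sets that the platform annotation pairs with that symbol alone. This gave 39 of the 40 genes, out of 19775 genes on the array. BMPR1A was not analysed here. Hep-3B and Huh7 are established lines from human liver cancers. In each line, stable populations carried a lentiviral short hairpin RNA against KLHL23 (shKLHL23) or against luciferase (shLuc), a sequence human cells do not make. Virus was used at a multiplicity of infection of 2, puromycin selection came after 48 hours, and the medium held 10% serum. Every population was therefore transduced, selected and fed with serum, itself a source of TGF-beta family ligands. Each of the 4 groups had 2 Affymetrix arrays, numbered 1 and 3, hybridised with biotin-labelled RNA. The labels do not say that replicates were separate cultures, so p-values measure the spread between these arrays, which may be technical. The labels name a single hairpin against KLHL23, and off-target effects of it cannot be told apart from loss of KLHL23.

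Ligands of this family are secreted dimers that bring type I and type II receptor kinases together. TGF-beta and activin receptors phosphorylate SMAD2 and SMAD3, and BMP receptors phosphorylate SMAD1 and SMAD5. These proteins pair with SMAD4 and enter the nucleus, where they switch on targets such as the ID genes and their own inhibitors, among them SMAD6, SMAD7 and SKIL. In liver, TGF-beta restrains hepatocyte growth and drives fibrosis, BMP signals induce the iron hormone hepcidin, and the activin subunits INHBC and INHBE are made mainly by hepatocytes. KLHL23 belongs to the Kelch-like family, many of whose members present substrates to cullin ubiquitin ligases, and the study's title links it to epithelial-mesenchymal transition, a process TGF-beta can induce.

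Values are log2 levels, so a difference of 1 is a doubling. A gene was called changed when its limma p-value, adjusted by Benjamini-Hochberg over all 19775 genes, was under 0.05, and each SE is limma's moderated standard error. KLHL23 itself read 7.81 and 7.84 in Hep-3B control, 7.21 and 6.15 in Hep-3B knockdown, 7.89 and 7.87 in Huh7 control, and 5.78 and 5.88 in Huh7 knockdown (replicates 1 and 3 in this order throughout). The knockdown was thus uneven in Hep-3B. KLHL23 differed there by -1.14 (limma adjusted p = 0.0833), which did not pass, and in Huh7 by -2.05 (limma adjusted p = 0.00363). Between the lines these differed by -0.91 (limma adjusted p = 0.316), which did not pass either. An effect of the line and an effect of knockdown depth cannot be told apart where responses differ between the lines. Array medians lay between 4.56 and 4.60 and lower quartiles between 3.08 and 3.12, and no detection calls came with the values. Of 7 measured hepatocyte markers all were above the median on every array (7.78 to 13.75). TTR, the carrier transthyretin, was the only one of them called, higher in knockdown by 1.58 in Hep-3B (limma adjusted p = 0.0148) and 1.23 in Huh7 (limma adjusted p = 0.00524). Of 16 measured markers of stromal, endothelial and blood cells, 6 were above the median on every array and 8 below it on every array. ACTA2 read up to 9.36, COL1A1 6.59 to 6.91, PECAM1 5.25 to 7.18 and CD14 4.31 to 6.75, while PTPRC, CDH5 and LUM lay between 2.25 and 2.75. None of the 16 was called in either line. The part of these markers in the differences below was not tested. RNA integrity was read from the 3' minus 5' difference of ACTB. It stood at 0.442 and 0.537 in Hep-3B control and 0.737 and 0.753 in knockdown, but 0.873 and 0.833 in Huh7 control and 0.525 and 0.546 in knockdown. The same measure for GAPDH was 0.117 and 0.12 against 0.223 and 0.236 in Hep-3B, and 0.132 and 0.089 against 0.148 and 0.112 in Huh7. Both were higher in Hep-3B knockdown, while in Huh7 knockdown ACTB was lower and the GAPDH groups overlapped. The part of RNA integrity in the differences below was not tested.

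The promoters of 37 of the 40 genes were found in a RefSeq table of build GRCh38.p14. INHBE, BMP2 and SKI were not in it, so their promoters were not searched. Those of SKIL, ID1 and ID4 are shown as examples of feedback and response genes that changed in Huh7. SMAD7, another such gene, is not shown. The promoter of SMAD6, also a feedback gene, is shown because it alone of the 37 held the palindrome to which SMAD proteins can bind. SMAD6 was not called. Each run covers the 250 bases before the annotated start, 5' to 3' on the gene's plus strand: SKIL at chr3:170357465-170357714, ID1 at chr20:31605039-31605288, ID4 at chr6:19837120-19837369 and SMAD6 at chr15:66701986-66702235. For SMAD6 the annotated start whose window holds the palindrome was used. Capitals mark matches, on either strand, to the 5 motifs spelled out after the sequences.
SKIL: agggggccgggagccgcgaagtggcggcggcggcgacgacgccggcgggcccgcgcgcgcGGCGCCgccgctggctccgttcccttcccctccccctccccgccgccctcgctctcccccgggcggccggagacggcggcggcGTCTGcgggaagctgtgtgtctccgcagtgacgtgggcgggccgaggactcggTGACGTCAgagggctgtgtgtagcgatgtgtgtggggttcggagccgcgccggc
ID1: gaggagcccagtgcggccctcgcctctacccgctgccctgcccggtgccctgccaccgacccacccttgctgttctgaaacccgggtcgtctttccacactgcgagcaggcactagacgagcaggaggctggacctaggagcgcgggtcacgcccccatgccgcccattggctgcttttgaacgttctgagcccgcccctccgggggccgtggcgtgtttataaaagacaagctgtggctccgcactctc
ID4: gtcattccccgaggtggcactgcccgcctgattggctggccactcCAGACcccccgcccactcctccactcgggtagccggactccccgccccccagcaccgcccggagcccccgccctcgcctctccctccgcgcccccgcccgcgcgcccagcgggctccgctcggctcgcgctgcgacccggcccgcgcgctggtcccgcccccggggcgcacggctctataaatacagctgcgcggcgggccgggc
SMAD6: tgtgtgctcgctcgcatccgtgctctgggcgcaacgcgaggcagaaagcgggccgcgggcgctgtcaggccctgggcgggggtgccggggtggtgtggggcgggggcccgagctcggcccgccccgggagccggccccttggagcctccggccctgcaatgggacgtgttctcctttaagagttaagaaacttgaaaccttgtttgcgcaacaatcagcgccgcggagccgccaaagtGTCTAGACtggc

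GTCTAGAC lay 12 bases before the start of SMAD6 and was found in 1 of 37 pathway genes and in 0.231% of 27305 genes of the table. TGACGTCA, the cyclic AMP response element, lay 54 bases before the start of SKIL and was found in SKIL and LTBP1, against 2.03% of all genes. GGCGCC, the core of GC-rich BMP response elements, occurred in 13 of 37 genes, SKIL included, against 19% of all. CAGAC, the SMAD box, occurred in 18 of 37 against 42.8%, once each in SKIL and ID4. TGATGNAA, an element of stress-induced genes, occurred in 0 of 37 against 3.89%, and INHBE was not among the 37. The upstream stretch of ID1 held none of the 5. GTCTAGAC, GGCGCC and TGACGTCA read the same on both strands, and none of the capitals shown overlap. A gene was counted if any of its annotated starts held the motif, and 12 of the 37 had several starts. A match describes letters only and does not show a bound site.

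The first question was which of these genes differed between knockdown and control when the lines were averaged. Here 10 of 39 genes fell and 0 rose. They came from every step of the pathway except the extracellular modulators: the ligands INHBE, GDF15 and INHBB, the receptors TGFBR3 and ACVR2A, the BMP effector SMAD5, the inhibitors SMAD7, SKIL and TGIF1, and the target ID1. Among all genes 15.6% were called and 8.02% fell in this comparison. At an unadjusted p under 0.05 there were 16 of 39, against 29% of all genes. In cultured lines measured in bulk, fewer cells that express a gene and less RNA per cell cannot be told apart. The median difference was -0.15 over the 39 genes and 0.01 over all genes. Of the 10 genes, 7 were called with any single array left out, namely INHBE, TGFBR3, ACVR2A, SMAD5, SMAD7, TGIF1 and ID1, and the count ranged from 7 to 12. Calls of INHBB, GDF15 and SKIL were lost without certain control arrays, and that of INHBB also without Hep-3B knockdown replicate 3 or Huh7 knockdown replicate 1.

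**Figure D1:**
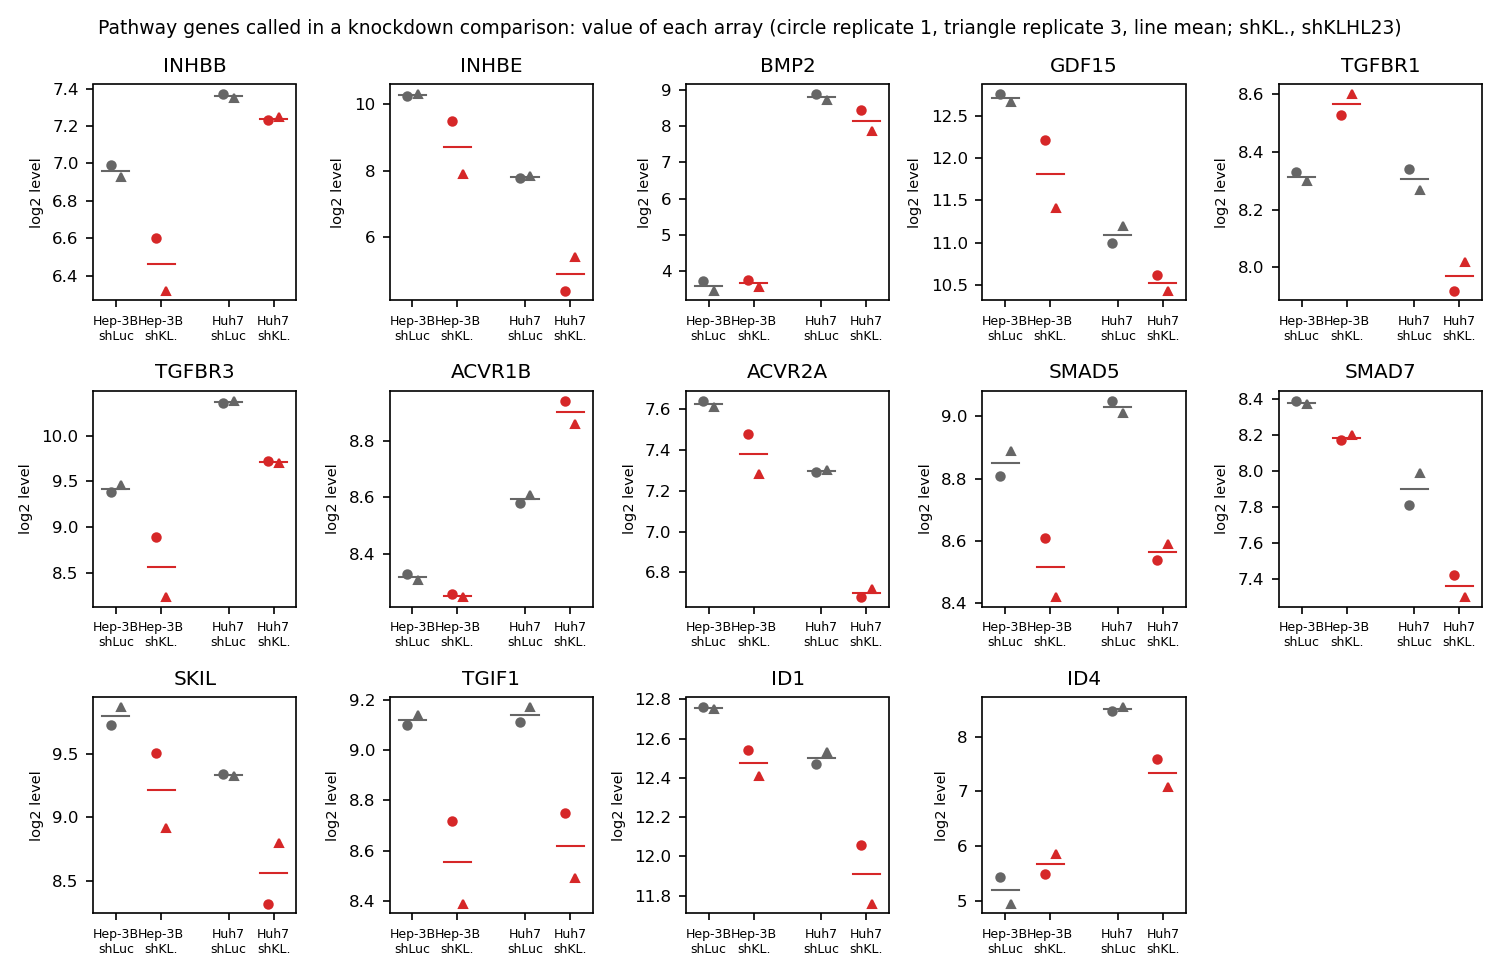
The log2 level of each array (vertical axes, each with its own range) is drawn for the 14 genes called in a knockdown comparison, with control arrays in grey, knockdown arrays in red, circles for replicate 1, triangles for replicate 3 and a line at the mean of the 2 arrays. INHBE drops furthest in both lines, while ID4 and BMP2 start far higher in Huh7 than in Hep-3B.

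INHBE, the activin beta E subunit secreted by hepatocytes, showed the largest difference of the 39 genes. Its arrays read 10.24 and 10.30 in Hep-3B control and 9.51 and 7.91 in knockdown, and 7.77 and 7.83 in Huh7 control and 4.40 and 5.42 in knockdown. All 4 knockdown arrays lay below the controls of their line, and of the Hep-3B knockdown arrays replicate 3 was much the lower. The mean difference over both lines was -2.22 (SE 0.33, limma adjusted p = 0.00508). In Huh7 it was -2.89 (SE 0.47, limma adjusted p = 0.00705) from 2 arrays a group, a 7.4-fold fall. In Hep-3B it was -1.56 (SE 0.47, limma adjusted p = 0.134), which did not pass, and it moved to -2.36 without knockdown replicate 1 and -0.76 without replicate 3. The Huh7 difference missed the threshold without either Huh7 control array (limma adjusted p up to 0.0565). INHBC lies next to INHBE on chromosome 12 in the RefSeq table, with 0 annotated genes between them. It encodes the related beta C subunit and read 6.37 and 6.42 against 6.24 and 6.51 in Hep-3B and 6.20 and 6.14 against 6.04 and 6.36 in Huh7, with overlapping arrays in both lines.

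GDF15, a stress-induced ligand that acts on appetite through the brainstem, read 12.76 and 12.67 in Hep-3B control, 12.22 and 11.41 in knockdown, 10.99 and 11.20 in Huh7 control, and 10.62 and 10.43 in knockdown. The knockdown arrays lay below the controls in each line. The mean difference was -0.73 (SE 0.16, limma adjusted p = 0.0173), with -0.90 in Hep-3B (limma adjusted p = 0.0926) and -0.57 in Huh7 (limma adjusted p = 0.139). Leaving out Hep-3B knockdown replicate 3 moved the value there to -0.49. The call was lost without Huh7 control replicate 3 or either Hep-3B control array (limma adjusted p up to 0.0693). A pair of dim probe sets of GDF15, with means of 4.58 and 4.47, gave mean differences of -0.04 and -0.23. The chosen probe set is of a kind that can cross-hybridise, and with such probe sets left out the value for GDF15 was no longer called (limma adjusted p = 0.81).

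INHBB, the activin beta B subunit, read 6.99 and 6.93 against 6.60 and 6.32 in Hep-3B, and 7.37 and 7.35 against 7.23 and 7.25 in Huh7. Its fall was modest, at -0.31 over both lines (SE 0.08, limma adjusted p = 0.0279), with -0.50 in Hep-3B and -0.12 in Huh7. The difference between the lines was 0.39 (95% interval 0.04 to 0.73, limma adjusted p = 0.283) and did not pass. INHBA, the beta A subunit, lay between 3.07 and 3.67 on all arrays, near their lower quartiles.

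BMP2, a ligand of the BMP branch, fell only modestly and was measurable mainly in Huh7. It read 8.87 and 8.72 in Huh7 control and 8.43 and 7.86 in knockdown, a difference of -0.65 (SE 0.18, limma adjusted p = 0.0472). In Hep-3B it read 3.73 and 3.47 against 3.75 and 3.58, near the lower quartile, so a change there would be hard to see. It lost its call with 7 of 8 single arrays left out (limma adjusted p up to 0.218), and without Huh7 knockdown replicate 3 the difference was -0.37. From their chosen probe sets BMP4, TGFB1, TGFB2 and TGFB3 were not called in any knockdown comparison, with differences between -0.27 and 0.32. A dim probe set of TGFB2, with a mean of 3.36, was higher in Huh7 (0.43, limma adjusted p = 0.0437). It also passed over both lines (0.33, limma adjusted p = 0.0302), and the remaining probe sets of TGFB2 did not pass.

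Of the receptors TGFBR3 and ACVR2A fell over both lines. TGFBR3 encodes betaglycan, a coreceptor that presents TGF-beta 2 and inhibin to the signalling receptors. It read 9.38 and 9.46 in Hep-3B control and 8.89 and 8.24 in knockdown, and 10.36 and 10.38 in Huh7 control and 9.72 and 9.70 in knockdown. No knockdown array reached a control array of its line. The mean difference was -0.76 (SE 0.12, limma adjusted p = 0.00719), with -0.85 in Hep-3B (limma adjusted p = 0.0697) and -0.66 in Huh7 (limma adjusted p = 0.0423). Leaving out Hep-3B knockdown replicate 3 moved the value there to -0.53. In Huh7 the call was kept without either Hep-3B knockdown array and lost without any of the 6 other arrays (limma adjusted p up to 0.168). A second bright probe set was also lower in each line, passing over all probe sets in Hep-3B (limma adjusted p = 0.0451) and not in Huh7 (-0.56, limma adjusted p = 0.11).

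ACVR2A, a type II receptor for activins and BMPs, read 7.64 and 7.61 against 7.48 and 7.28 in Hep-3B and 7.29 and 7.30 against 6.68 and 6.72 in Huh7. The Huh7 arrays were close within each group and far apart between groups. The Huh7 difference was -0.60 (SE 0.10, limma adjusted p = 0.00714), and the mean over both lines was -0.42 (SE 0.07, limma adjusted p = 0.00659). Its other probe set gave -0.61 in Huh7 and 0.02 in Hep-3B, so both probe sets fell in Huh7. In Hep-3B the chosen one gave -0.25 (limma adjusted p = 0.227), and -0.15 without knockdown replicate 3. Its call in Huh7 was lost without either Huh7 control array (limma adjusted p up to 0.059).

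Of the type I receptors, TGFBR1 and ACVR1B moved apart in Huh7 by their chosen probe sets. TGFBR1, the kinase for TGF-beta, read 8.34 and 8.27 in control and 7.92 and 8.02 in knockdown, a difference of -0.33 (SE 0.09, limma adjusted p = 0.0419). ACVR1B, the kinase for activin, read 8.58 and 8.61 in control and 8.94 and 8.86 in knockdown, a rise of 0.31 (SE 0.09, limma adjusted p = 0.0474). Both changes were small and close to the threshold. TGFBR1 stayed called with 3 of 8 single arrays left out and ACVR1B with 1 of 8. In Hep-3B TGFBR1 read 8.33 and 8.30 against 8.53 and 8.60, which is 0.25 higher, and the difference between the lines of -0.58 (95% interval -0.87 to -0.29) had a limma adjusted p = 0.0746. A dimmer probe set of TGFBR1 gave -0.44 in Hep-3B, the opposite sign, and passed over both lines (-0.39, limma adjusted p = 0.0256). In Huh7 it did not pass (-0.34, limma adjusted p = 0.146). ACVR1B read 8.33 and 8.31 against 8.26 and 8.25 in Hep-3B, a difference of -0.06 (limma adjusted p = 0.773). Its other probe sets gave -0.22 to 0.44 in Huh7, and none passed. Adjusted over all probe sets, the chosen ones of TGFBR1 and ACVR1B did not pass in Huh7 (limma adjusted p = 0.071 and 0.0827). The other 5 receptors, TGFBR2, ENG, ACVR1, ACVR2B and BMPR2, were not called in a knockdown comparison, with differences within a line from -0.42 to 0.36. Neither were the secreted activin traps FST and FSTL3 or LTBP1, which stores latent TGF-beta in the matrix. A dimmer probe set of BMPR2 was higher in Huh7 (0.5, limma adjusted p = 0.048), and no other probe set of BMPR2 passed there.

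SMAD5, an effector of BMP receptors, read 8.81 and 8.89 against 8.61 and 8.42 in Hep-3B and 9.05 and 9.01 against 8.54 and 8.59 in Huh7. Knockdown arrays were lower throughout. The difference was -0.47 in Huh7 (SE 0.10, limma adjusted p = 0.0171), -0.33 in Hep-3B (limma adjusted p = 0.127) and -0.40 over both lines (SE 0.07, limma adjusted p = 0.00813). All 4 other probe sets of SMAD5 gave negative differences in both lines, from -0.05 to -0.91. In Huh7 the call was lost without Huh7 control replicate 1 or 3 or knockdown replicate 1 (limma adjusted p up to 0.11). SMAD1, SMAD2, SMAD3 and SMAD4 were not called from their chosen probe sets. A second bright probe set of SMAD1 passed over all probe sets in Huh7 (-0.46, limma adjusted p = 0.0457). It also passed over both lines (-0.34, limma adjusted p = 0.0352), while a dim one did not pass in Huh7 (-0.10). In Hep-3B all 5 effector genes lay lower in both knockdown arrays than in both controls, as did 23.5% of all genes. Their differences there were -0.33 to -0.21, and none was called.

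Of 7 intracellular inhibitors 3 fell in Huh7, where 7.73% of all genes did, and the same 3 fell over both lines, where 8.02% of all genes did. SMAD7, which recruits ubiquitin ligases to the TGF-beta receptor and is itself a target of the pathway, read 7.81 and 7.99 in Huh7 control and 7.42 and 7.30 in knockdown. The Huh7 difference was -0.54 (SE 0.10, limma adjusted p = 0.0104). In Hep-3B it read 8.39 and 8.37 against 8.17 and 8.20, a difference of -0.19 (95% interval -0.41 to 0.03, limma adjusted p = 0.356). SMAD7 kept its Huh7 call with 7 of 8 single arrays left out, the exception being Huh7 control replicate 3 (limma adjusted p = 0.0873).

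SKIL, a corepressor that holds SMAD complexes inactive until TGF-beta has it degraded, read 9.73 and 9.87 against 9.51 and 8.92 in Hep-3B and 9.34 and 9.33 against 8.32 and 8.80 in Huh7. Knockdown arrays were lower in both lines and differed widely from each other. Over both lines the difference was -0.69 (SE 0.14, limma adjusted p = 0.0157). Within lines it was -0.78 in Huh7 (limma adjusted p = 0.038) and -0.59 in Hep-3B (limma adjusted p = 0.18). In Hep-3B it became -0.30 without knockdown replicate 3. Another probe set of SKIL passed over all probe sets in Hep-3B (-0.69, limma adjusted p = 0.0451) but not in Huh7 (-0.29, limma adjusted p = 0.232). The call over both lines was lost without either Huh7 control array or Hep-3B control replicate 3 (limma adjusted p up to 0.0596). That in Huh7 was lost without any of the 4 control arrays or Huh7 knockdown replicate 1 (limma adjusted p up to 0.187).

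TGIF1, a homeodomain corepressor of SMAD complexes, read 9.10 and 9.14 against 8.72 and 8.39 in Hep-3B and 9.11 and 9.17 against 8.75 and 8.49 in Huh7. Control and knockdown levels were nearly the same in the lines. The differences were -0.57 in Hep-3B (limma adjusted p = 0.0813), -0.52 in Huh7 (limma adjusted p = 0.0342) and -0.54 over both (SE 0.09, limma adjusted p = 0.00802). The difference between the lines was 0.05, with a 95% interval of -0.37 to 0.47. Its call in Huh7 was lost without any of the 4 control arrays or Huh7 knockdown replicate 3 (limma adjusted p up to 0.164). SMAD6, SMURF1, SMURF2 and SKI, which also restrain the pathway, were not called from their chosen probe sets in a knockdown comparison. Their differences within a line were -0.27 to 0.21. A dimmer probe set of SMURF2 passed over both lines (-0.36, limma adjusted p = 0.0431) but not in Huh7 (-0.47, limma adjusted p = 0.0668). The remaining probe sets of SMURF2 gave -0.25 and 0.07 over both lines.

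The ID proteins bind and silence basic helix-loop-helix transcription factors, and their genes are classic targets of BMP signalling. ID1 read 12.76 and 12.75 against 12.54 and 12.41 in Hep-3B and 12.47 and 12.53 against 12.06 and 11.76 in Huh7. It was lower on all 4 knockdown arrays. The difference was -0.60 in Huh7 (SE 0.11, limma adjusted p = 0.0129), -0.28 in Hep-3B (limma adjusted p = 0.245) and -0.44 over both lines (SE 0.08, limma adjusted p = 0.0101). In Huh7 ID1 missed the threshold without either Huh7 control array (limma adjusted p up to 0.0906).

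ID4 was the only one of the 39 genes whose response differed between the lines by the test of that difference. It read 8.48 and 8.54 in Huh7 control and 7.60 and 7.08 in knockdown, a difference of -1.17 (SE 0.21, limma adjusted p = 0.00998). In Hep-3B it read 5.43 and 4.95 in control and 5.49 and 5.85 in knockdown, a difference of 0.48 (limma adjusted p = 0.28). Between the lines the responses differed by -1.65 (SE 0.29, limma adjusted p = 0.0417), in a comparison where 1.26% of all genes were called, 0.814% lower and 0.445% higher in Huh7. At an unadjusted p under 0.05 there were 10 of 39, against 14.7% of all genes. That call was kept only without Huh7 knockdown replicate 1 among the 8 single arrays (limma adjusted p up to 0.167), and with the mean of its probe sets ID4 was not called. The fall in Huh7 was lost without either Huh7 control array (limma adjusted p up to 0.0708). Of the 4 other probe sets of ID4, with means of 2.85 to 5.60, 1 passed in Huh7 (-0.81, limma adjusted p = 0.0326). ID2 and ID3 were lower on both Huh7 knockdown arrays, at -0.29 (limma adjusted p = 0.238) and -0.51 (limma adjusted p = 0.121), and neither was called. TGFBI, a matrix protein named for its induction by TGF-beta, read 11.99 to 12.20 on all 8 arrays.

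**Figure D2:**
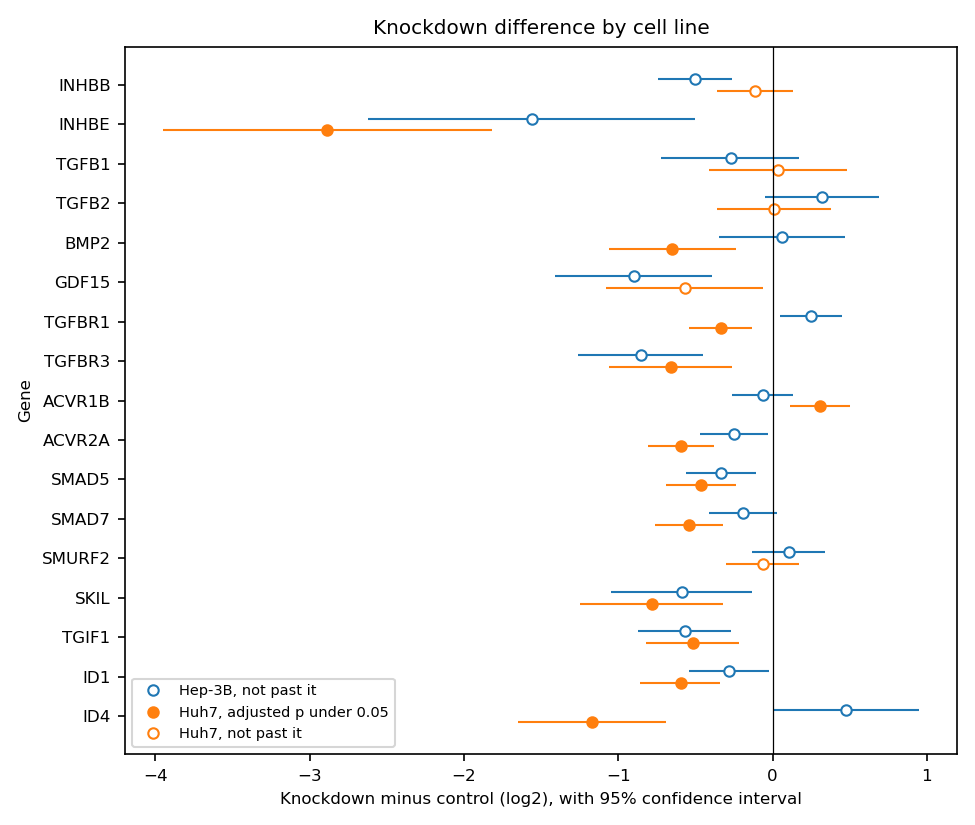
Knockdown minus control on the log2 scale (horizontal axis) is drawn with its 95% confidence interval for 17 genes, in blue for Hep-3B and orange for Huh7, and filled points passed an adjusted p of 0.05. INHBE stands furthest left in both lines, and ID4 is the gene whose lines lie furthest apart, at 0.48 and -1.17.

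By line, 12 of 39 genes were called in Huh7, where 13.5% of all genes were. They were 11 falls, against 7.73% of all genes, and the rise of ACVR1B, against 5.75%. At an unadjusted p under 0.05 there were 15 of 39, against 27.5% of all genes. The median difference was -0.12 over the 39 genes and 0 over all genes. This count rested on the control arrays. It was 1 without Huh7 control replicate 1, 0 without replicate 3, and 6 without either Hep-3B control array. Calls over all genes went from 2666 to 558, 545 and 1834 in these fits, so the loss was not limited to the pathway. With the mean of each gene's probe sets the count was 5 of 39 (INHBE, ACVR2A, SMAD7, ID1 and ID4). In that setting 2365 of all 19775 genes were called, down from 2666. The share called in the pathway was then close to that of all genes. Without either Huh7 control array, the pathway share was no higher than that of all genes. Of the 12 genes, 9 had other probe sets. Of these 24 probe sets 21 moved in the same direction as the chosen one, 2 of them past the threshold, and none passed in the opposite direction.

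In Hep-3B limma called 0 of 39 genes, where 0.693% of all genes were called, 0.536% higher and 0.157% lower. This holds for the chosen probe sets. Other probe sets of SMAD5 (-0.91, limma adjusted p = 0.0377), SKIL (-0.69, limma adjusted p = 0.0451) and TGFBR3 (-1, limma adjusted p = 0.0451) passed over all probe sets. The share of all probe sets that passed was not counted. At an unadjusted p under 0.05 there were 15 of 39, against 17.7% of all genes. Both knockdown arrays lay below both controls for 24 of 39 genes, against 23.5% of all genes, and above them for 11, against 29.4%. In Huh7 these counts were 19, against 27.2%, and 4, against 26.5%. The median difference in Hep-3B was -0.15 over the 39 genes and 0.02 over all. With array weights 5 genes were called (INHBB, GDF15, FSTL3, TGFBR3 and TGIF1, all lower) and with an intensity trend and robust variances 4. Without knockdown replicate 1 there were 7, all lower, from a lone knockdown array. Calls over all genes rose as well, from 137 to 671, 850 and 1135. FSTL3, a secreted inhibitor that traps activins, read 7.54 and 7.64 in Hep-3B control and 7.11 and 6.40 in knockdown, a difference of -0.83 (limma adjusted p = 0.0824). Of the 12 genes called in Huh7, 8 (66.7%) had the same sign in Hep-3B, as did 79.8% of all 2666 genes called there.

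**Figure D3:**
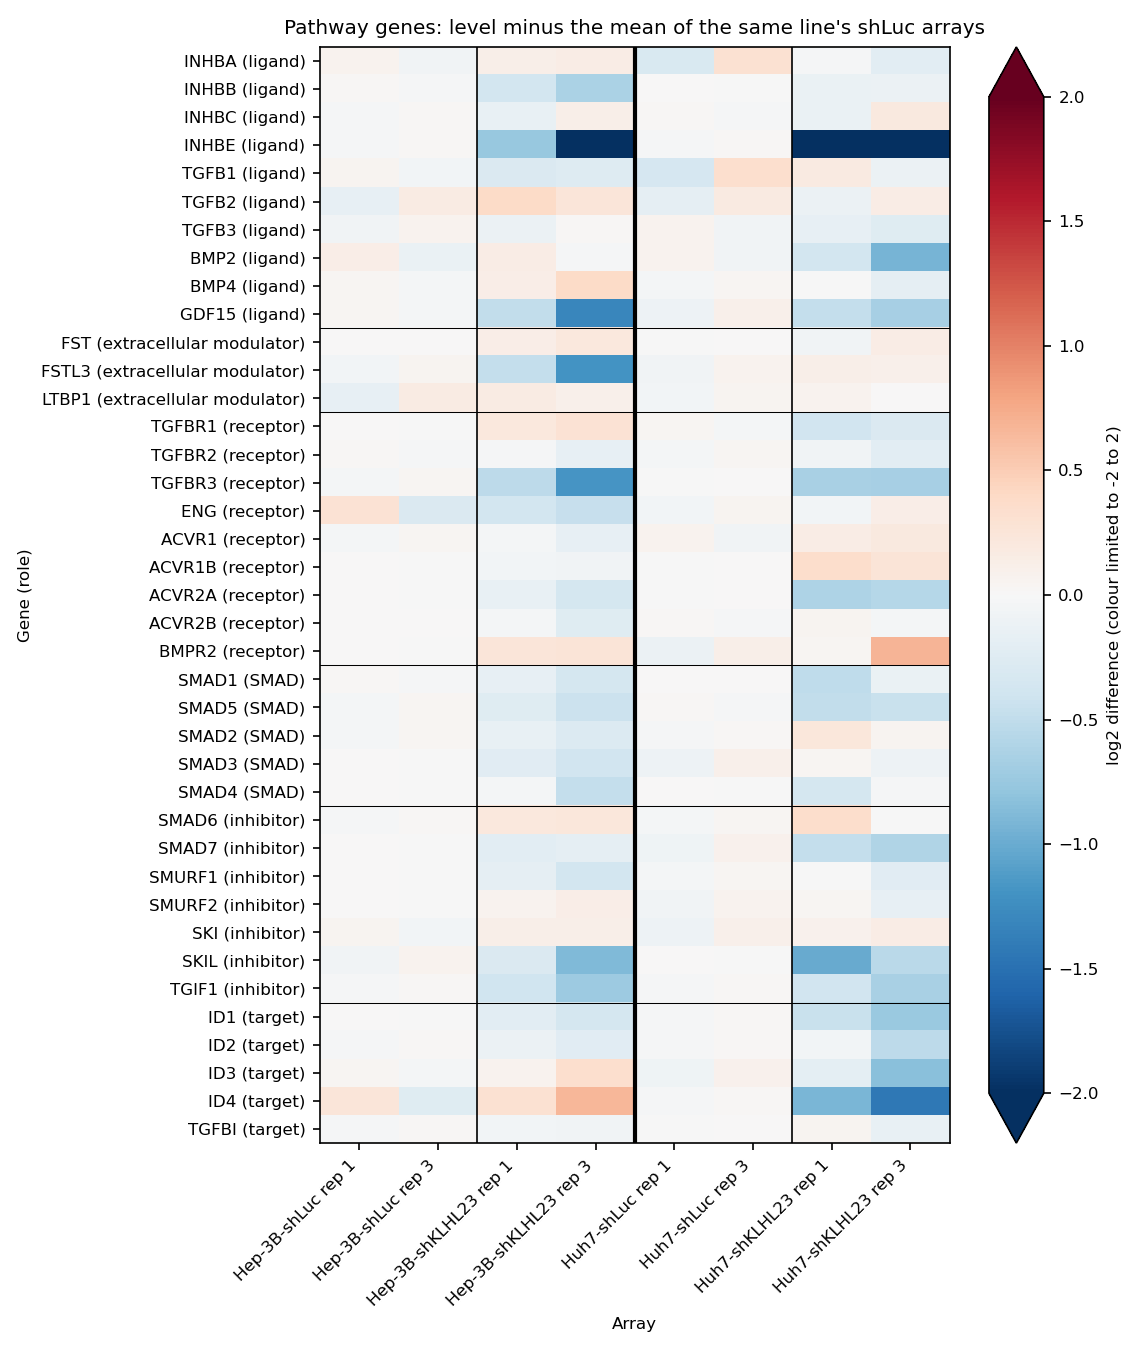
Each row is a gene with its role and each column an array, and the colour is the log2 level minus the mean of the 2 shLuc arrays of the same line, blue for lower and red for higher, limited to 2 in either direction. Blue prevails in the knockdown columns, most deeply for INHBE, and Hep-3B knockdown replicate 3 is bluer than replicate 1.

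Before knockdown the lines already differed widely in this pathway. Between the control groups 24 of 39 genes differed, where 32.7% of all genes did. In Huh7 7 of them were higher, against 17.7% of all genes, and 17 lower, against 14.9%. At an unadjusted p under 0.05 there were 26 of 39, against 40.5% of all genes. With single arrays left out the count was 19 to 26. TGFB1 and TGFB2, which encode TGF-beta ligands, differed in opposite directions. TGFB1 read 8.07 and 7.96 in Hep-3B control and 4.89 and 5.56 in Huh7 control, a difference of -2.79 (SE 0.20, limma adjusted p = 1.13e-05). TGFB2 read 3.37 and 3.69 in Hep-3B and 6.19 and 6.56 in Huh7, a difference of 2.85 (SE 0.16, limma adjusted p = 3.29e-06). The knockdown arrays read 7.72 and 7.76 for TGFB1 and 3.92 and 3.78 for TGFB2 in Hep-3B, and 5.41 and 5.11 for TGFB1 and 6.25 and 6.53 for TGFB2 in Huh7. A dimmer probe set of TGFB1 gave only -0.49 between the control groups.

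BMP2 differed most, at 5.19 higher in Huh7 (SE 0.18, limma adjusted p = 1.96e-07), and ID4 was 3.32 higher (SE 0.21, limma adjusted p = 5.84e-06). INHBE was lower in Huh7 by -2.47 (SE 0.47, limma adjusted p = 0.00333) and SMURF2, a ubiquitin ligase for receptors and SMADs, by -1.69 (SE 0.10, limma adjusted p = 4.83e-06), from 8.41 and 8.40 to 6.65 and 6.78. Its knockdown arrays read 8.48 and 8.54 in Hep-3B and 6.76 and 6.55 in Huh7. Of 9 receptors measured, 8 differed, against 32.7% of all genes, and 6 were lower in Huh7, against 14.9%. Among the 6 were ACVR1 (-1.57), TGFBR2 (-1.56) and BMPR2 (-1.08), while TGFBR3 was higher (0.95). The second TGF-beta receptor, TGFBR2, read 11.45 and 11.41 in Hep-3B and 9.82 and 9.91 in Huh7 control. TGFBR1, SMAD3 and TGIF1 differed by 0.02 or less between the control groups, with 95% intervals inside -0.28 to 0.31. Other probe sets did not bear this out for TGFBR1 (-0.58, limma adjusted p = 0.00782) or SMAD3 (-0.42 and -0.41, limma adjusted p = 0.0279 and 0.0217), all lower in Huh7.

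**Figure D4:**
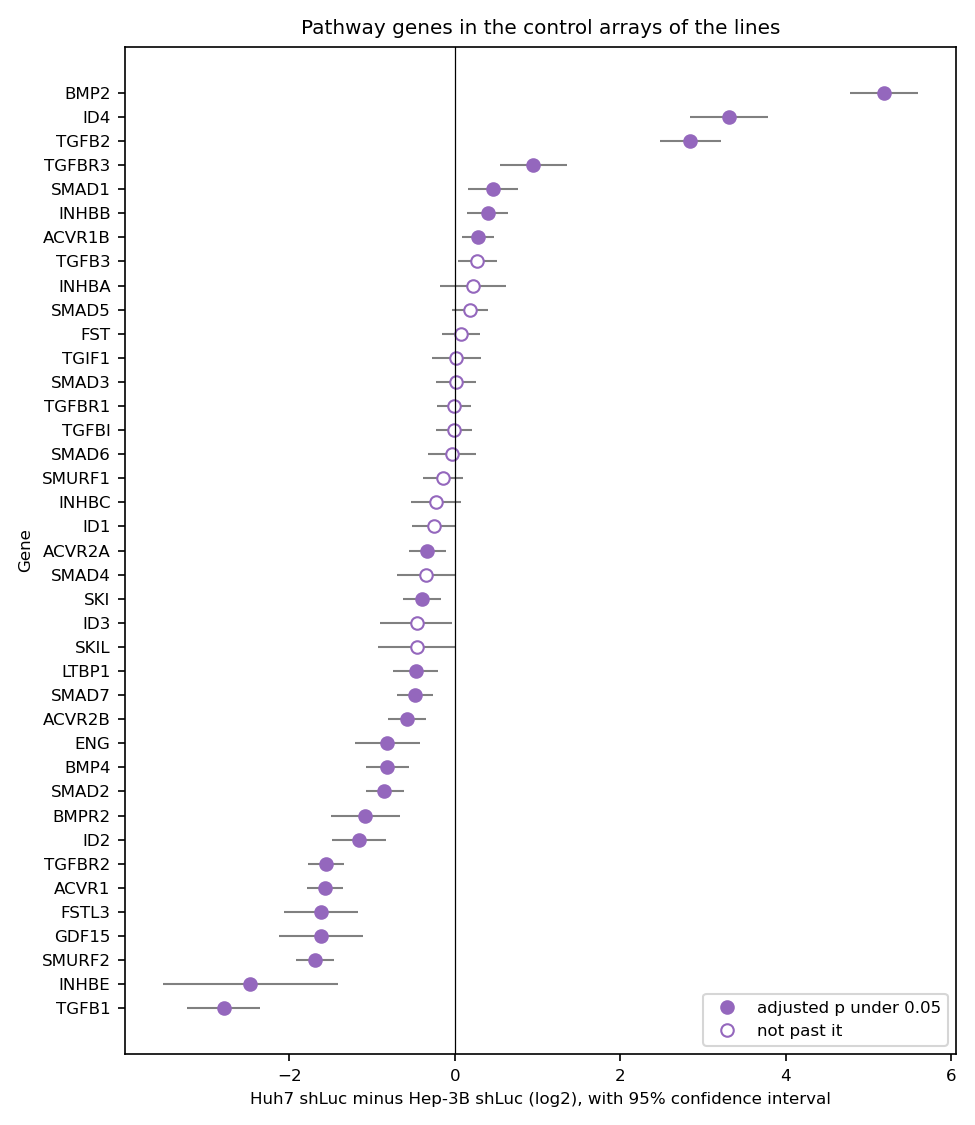
Huh7 control minus Hep-3B control on the log2 scale (horizontal axis) is drawn for the 39 genes with 95% confidence intervals, and filled points passed an adjusted p of 0.05. BMP2, ID4 and TGFB2 stand far to the right, higher in Huh7, and TGFB1 and INHBE furthest to the left.

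The neighbouring parts of the pathway were read from a list of 73 further ligands, receptors, modulators and targets, of which 65 were measured. Over both lines 8 of 65 (12.3%) were called, against 15.6% of all genes, and all 8 fell, against 8.02% of all genes. The median over the 65 was -0.01. The largest were KLF10, a zinc finger factor induced early by TGF-beta (-1.27, limma adjusted p = 0.0044), HAMP, the hepcidin gene (-0.83, limma adjusted p = 0.00639), and CITED2, a coactivator adaptor (-0.69, limma adjusted p = 0.0107). TGIF2, the close relative of TGIF1 (-0.48, limma adjusted p = 0.00671), the BMP coreceptor RGMB (-0.45, limma adjusted p = 0.00393) and CCN2, a matrix-associated growth factor induced by TGF-beta (-0.43, limma adjusted p = 0.016), followed. CCN2 was lost without any of the 4 control arrays (limma adjusted p up to 0.0652). HAMP read 11.42 and 11.34 against 11.04 and 10.69 in Hep-3B and 8.63 and 8.64 against 7.19 and 7.79 in Huh7, lower on each knockdown array.

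In Huh7 14 of 65 (21.5%) were called, against 13.5% of all genes. Of these 11 were lower and 3 higher, against 7.73% and 5.75%. In Hep-3B limma called 0, against 0.693%, and 13 passed an unadjusted p under 0.05, against 17.7%. The Huh7 count ranged from 3 to 13 with single arrays left out, and KLF10, RGMB and TAGLN were called each time. KLF10 (-1.70), HAMP (-1.14), the ligand GDF11 (-0.87), RGMB (-0.80) and TGIF2 (-0.65) were among the falls. HAMP was lost without either Huh7 control array and GDF11 and TGIF2 without replicate 3 (limma adjusted p up to 0.0727). Of 4 other probe sets of GDF11, 1 fell in Huh7 (-0.38, limma adjusted p = 0.0434). TAGLN, an actin-binding protein of smooth muscle that TGF-beta induces, went the other way. It read 7.34 and 7.66 in Huh7 control and 9.47 and 9.16 in knockdown, a rise of 1.81 (SE 0.24, limma adjusted p = 0.00368). In Hep-3B it read 9.27 and 9.18 in control and 8.48 and 7.66 in knockdown, at -1.15 (limma adjusted p = 0.0699). The groups did not overlap in either line, and the lines differed by 2.96 (SE 0.34, limma adjusted p = 0.0098). A second bright probe set gave 1.61 in Huh7 (limma adjusted p = 0.00687), and a dimmer one gave 0.09 (limma adjusted p = 0.714).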

How the data were processed

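The authors deposited log2 expression values made with RMA (Affymetrix Expression Console 1.2), as the submitters' processing notes give it. This method corrects background, equalises the arrays' distributions and summarises probes, which shrinks changes of dim probe sets and hides a change in total RNA. Other settings are not given in the sources used here. Of 54675 probe sets, 41097 carried a single symbol, and each gene took the one with the highest mean over 8 arrays.

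A limma 3.58.1 model (R 4.3.3) with a mean for each of 4 groups was fitted to all 19775 genes, with 4 residual and 4.59 prior degrees of freedom. The contrasts were knockdown minus control in each line, their mean, their difference, and control against control. The number of arrays limits the precision. The procedure was tested on simulated data. The genes, lists and rules were chosen with earlier results of these data known. Of the 39 genes, every array's value is given for those called in a knockdown comparison. The same holds for differences of at least 1 in a line and for the 6 largest called differences between control lines. Up to 6 called genes per comparison are named from the wider list. Alternatives were normalization, centring, a filter on dim genes, probe set choice, prior, array weights, lines fitted alone, a replicate block and each array left out. Promoter sequences are from RefSeq, build GRCh38.p14.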

Additional observations from a re-analysis of the deposited data

Results flagged for a closer look

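Results are listed here because the knockdown difference in Huh7 and that in Hep-3B differed by the interaction test. KLHL23 itself fell by unlike amounts, -1.14 in Hep-3B and -2.05 in Huh7, so line and knockdown depth cannot be told apart here. ID4 differed by -1.65 (limma adjusted p = 0.0417), GDF7, a BMP-type ligand, by -1.13 (limma adjusted p = 0.0452), RGMB by -0.69 (limma adjusted p = 0.0414) and TAGLN by 2.96 (limma adjusted p = 0.0098). GDF7 read 5.59 and 5.34 against 5.91 and 6.18 in Hep-3B and 6.90 and 6.69 against 6.10 and 6.38 in Huh7. RGMB read 7.0 and 6.93 against 6.89 and 6.82 in Hep-3B and 6.36 and 6.37 against 5.56 and 5.57 in Huh7. Of these 4 calls TAGLN kept the threshold with 5 of 8 single arrays left out and each of the others with 1 of 8. A second bright probe set of TAGLN gave 2.89 (limma adjusted p = 0.0158), a dimmer one gave 0.43 (limma adjusted p = 0.271), and the other 3 probe sets of RGMB gave -0.16, -0.28 and 0.33.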

How the results depend on the processing

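Of the 10 pathway genes called over both lines, the count stayed within 7 to 12 under each alternative tried. In Hep-3B the count of 0 became 4 with an intensity trend and robust variances, 5 with array weights, 2 with the replicate block and 0 to 7 with single arrays left out. In Huh7 12 became 5 with probe sets averaged per gene and 0 to 11 with single arrays left out. The difference between lines went from 1 to 2 without dim genes, 2 with the trend, 0 with the mean of probe sets and 0 to 1 with single arrays left out. The 24 called between control lines became 19 to 26 with single arrays left out and 19 to 29 under the other alternatives. In the wider list the Hep-3B count of 0 became 4 with the trend, 3 with array weights, 3 with the replicate block and 0 to 4 with single arrays left out. The Huh7 count of 14 became 7 without cross-hybridising probe sets, 9 with array weights, 7 with each line fitted alone and 3 to 13 with single arrays left out. Over both lines 8 became 13 with the trend and 5 to 9, and between lines 3 became 0 to 3, with single arrays left out. Calls over all genes also moved. In Hep-3B 137 became 850 with the trend, 671 with array weights and 423 with the replicate block. In Huh7 2666 became 2365 with probe sets averaged, 1964 without cross-hybridising ones, 2181 with array weights and 1578 with lines fitted alone. Over both lines 3089 became 3808 with the trend. Between lines 249 became 330 without dim genes, 560 with the trend and 232 with probe sets averaged. Some of these settings test fewer arrays or genes. The cause of the moves was not tested in any setting.

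The replicate numbers gave no sign of pairing, since the deviations of same-numbered arrays correlated at -0.07 in Hep-3B and 0.06 in Huh7. With the replicate block 10 pathway genes were called in Huh7, where 2328 of all genes were. Over both lines 10 were called, where 2734 of all genes were. Signs turned only for values that were not called: TGFB1 in Huh7 (-0.30 to 0.37 with single arrays left out, -0.30 and -0.11 without control or knockdown replicate 1), TGFB2 in Huh7 (-0.17 to 0.20 with single arrays left out, -0.17 without control replicate 1, -0.12 without knockdown replicate 3), BMP2 in Hep-3B (-0.02 without knockdown replicate 1, -0.07 without control replicate 3) and SMURF2 in Huh7 (0.00 without control replicate 3, 0.04 without knockdown replicate 3). With the mean of probe sets TGFBR1 in Hep-3B was at -0.01 and SMURF2 at -0.12. Without cross-hybridising probe sets GDF15 in Huh7 was at 0.19, and in Hep-3B TGFBR1 was at -0.44, ACVR2A at 0.02 and SMURF2 at -0.26.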

Other observations

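In both lines the 2 knockdown arrays were less alike than the 2 control arrays. Over all genes, replicates differed with an SD of 0.222 in Hep-3B knockdown and 0.25 in Huh7 knockdown. The control groups gave 0.157 in Hep-3B and 0.171 in Huh7. Over the 39 genes, replicates of Hep-3B knockdown differed with an SD of 0.35 and those of Huh7 knockdown with 0.33, against 0.163 and 0.169 in the control groups. Replicate 3 of Hep-3B knockdown, with KLHL23 at 6.15 against 7.21 in replicate 1, was the lower of the 2 for 22 of the 24 pathway genes that lay below both controls, as it was for 73.8% of the 4653 such genes on the array. In Huh7, where KLHL23 read 5.78 and 5.88, replicate 3 was the lower for 11 of 19 such genes, against 43.9% of 5376.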
